A study of Homo sapiens with 6 samples.

Results

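Small nucleolar RNA (snoRNA) host genes were taken as every gene whose symbol is SNHG followed by a number, plus GAS5, ZFAS1, EPB41L4A-AS1 and DANCR. This gave 32 of the 62754 genes in the deposited table, 28 of the SNHG series and 4 by name. Poly(A)-selected RNA was sequenced from 3 control and 3 FAM60A-knockout libraries of human embryonic kidney cells, which the titles call HEK293 and the cell line label calls HEK293T. As knockout, a pool of cells (not a clone) was used that had been selected with puromycin after receiving Cas9 with several guides against 3 regions of FAM60A, a subunit of the Sin3/HDAC repressor complex. The labels give the control cells no other treatment. The study compared the groups to learn how loss of FAM60A alters gene expression. No label says that the 3 libraries of a group came from separate cultures, so p-values measure only the spread between these libraries, which may be technical.

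A snoRNA host gene carries snoRNAs in its introns. After splicing, the excised intron is debranched and trimmed to leave the snoRNA, which guides modification of ribosomal RNA: box C/D snoRNAs direct 2′-O-methylation, box H/ACA snoRNAs direct pseudouridylation, and the related scaRNAs act on spliceosomal RNAs in Cajal bodies. The spliced exons of many such genes code for no protein and are degraded by nonsense-mediated decay during translation, and several hosts start with the same pyrimidine-rich leader as ribosomal protein mRNAs. What was measured here was this spliced, polyadenylated host RNA, not the mature snoRNA.

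By RefSeq annotation (GRCh38.p14) the 32 hosts lay on 15 chromosomes and held 147 snoRNA and scaRNA genes, of which 121 were box C/D, 22 box H/ACA and 4 scaRNA. SNHG14, the long imprinted transcript that runs antisense to UBE3A, held 83 of them, GAS5 held 11 and SNHG1 held 8. A single snoRNA lay within 16 hosts, 2 or more within 14 and 0 within 2.

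The box C/D snoRNAs printed here belong to hosts described in full below, not all of which passed the test. The transcripts used held no sequence for the snoRNAs of SNHG29, so these are not shown. SNHG19 (chr16:2154782-2155358, minus strand) carries SNORD60, SNHG30 (chr17:35568114-35574313, plus strand) carries SNORD7, SNHG18 (chr5:9546200-9550298, plus strand) carries SNORD123, and ZFAS1 (chr20:49278178-49289260, plus strand) carries SNORD12, SNORD12B and SNORD12C. Capitals mark the C box (TGATGA) near the 5′ end and the D box (CTGA) near the 3′ end, the paired elements on which the snoRNA protein complex assembles. The sequences are those of the GENCODE transcripts, written as DNA from 5′ to 3′.
SNORD60: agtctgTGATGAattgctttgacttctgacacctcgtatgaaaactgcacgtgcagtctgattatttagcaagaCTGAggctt
SNORD7: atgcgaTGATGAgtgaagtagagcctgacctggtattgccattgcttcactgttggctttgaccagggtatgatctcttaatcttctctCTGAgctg
SNORD123: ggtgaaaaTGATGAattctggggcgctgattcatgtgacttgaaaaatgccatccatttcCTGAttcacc
SNORD12: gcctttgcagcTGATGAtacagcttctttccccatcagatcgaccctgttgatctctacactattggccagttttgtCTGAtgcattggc
SNORD12B: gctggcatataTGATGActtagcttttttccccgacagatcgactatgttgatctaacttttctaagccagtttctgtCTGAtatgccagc
SNORD12C: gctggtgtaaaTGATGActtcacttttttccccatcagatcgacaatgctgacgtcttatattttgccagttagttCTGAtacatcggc
As printed, the 3 snoRNAs of ZFAS1 are between 89 and 91 bases long and share the 9-base run cagatcgac. RefSeq gives SNORD12B and SNORD12C other lengths, 103 and 79 bases.

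Total counts per library lay between 88361827 and 93346824. FAM60A (SINHCAF, ENSG00000139146), the targeted gene, stood at 113, 106 and 132 CPM (counts per 1e6 counts of the library, scaled with TMM factors) in controls 1, 2 and 3 and at 67.5, 66.0 and 61.7 CPM in the knockouts. Its log2 fold change was −0.85 (SE 0.11, edgeR adjusted p = 0.00863). The exact permutation test over the 6 libraries gave p = 0.1, two-sided, the smallest that 3 against 3 allows. Without any 1 knockout library the FAM60A call was lost, with log2 fold changes between −0.92 and −0.78 over all single omissions. The HEK293 markers VIM and NEFL were detected in every library, and of 7 such markers INA (log2 fold change −1.88) and NEFM (−0.77) fell in the knockout. VIM stood at 694, 707 and 299 CPM in the controls and between 252 and 309 CPM in the knockouts. Of 5 markers of other cell types, summing to between 0.699 and 3.97 CPM, COL3A1 of fibroblasts was highest, at 0.463, 0.510 and 3.81 CPM in the controls and 1.77 to 1.86 CPM in the knockouts, while ALB, KRT5, KRT14 and PTPRC were near 0 in every library.

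Control 3 stood apart from controls 1 and 2. A chi-square of counts over genes gave 24.6 per degree of freedom between controls 1 and 2 and between 14.9 and 29.1 within the knockouts, against 382 and 394 between control 3 and the other two. Between control 3 and the knockouts it was 233 to 291, so control 3 was nearer to each knockout than to either other control. Results are therefore given with all 6 libraries and without control 3.

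The RNA of 4 snoRNA host genes fell in the knockout, SNHG19, SNHG30, SNHG29 and SNHG17, and that of none rose by the edgeR quasi-likelihood test at an adjusted p of at most 0.05. These are 4 of the 28 hosts that had enough counts to test (14.3%), and the same test called 16.6% of all 20992 genes tested. Calls toward a lower level made up 8.67% of all genes and calls toward a higher level 7.96%. At an unadjusted edgeR p under 0.05 there were 11 hosts, 4 higher and 7 lower, beside 7249 of the 20992 genes tested. Of hosts called higher, limma found 1 (SNHG4) and DESeq2 found 2 (GAS5 and SNHG4). In either direction limma called 4 hosts, beside 17.2% of all genes, and DESeq2 called 8, beside 26.6% of all genes. Only SNHG19 also passed an absolute log2 fold change of 1, a limit that 7.06% of all genes passed. In RNA from whole cultures, less RNA per cell and fewer cells that make it cannot be told apart.

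**Figure D1:**
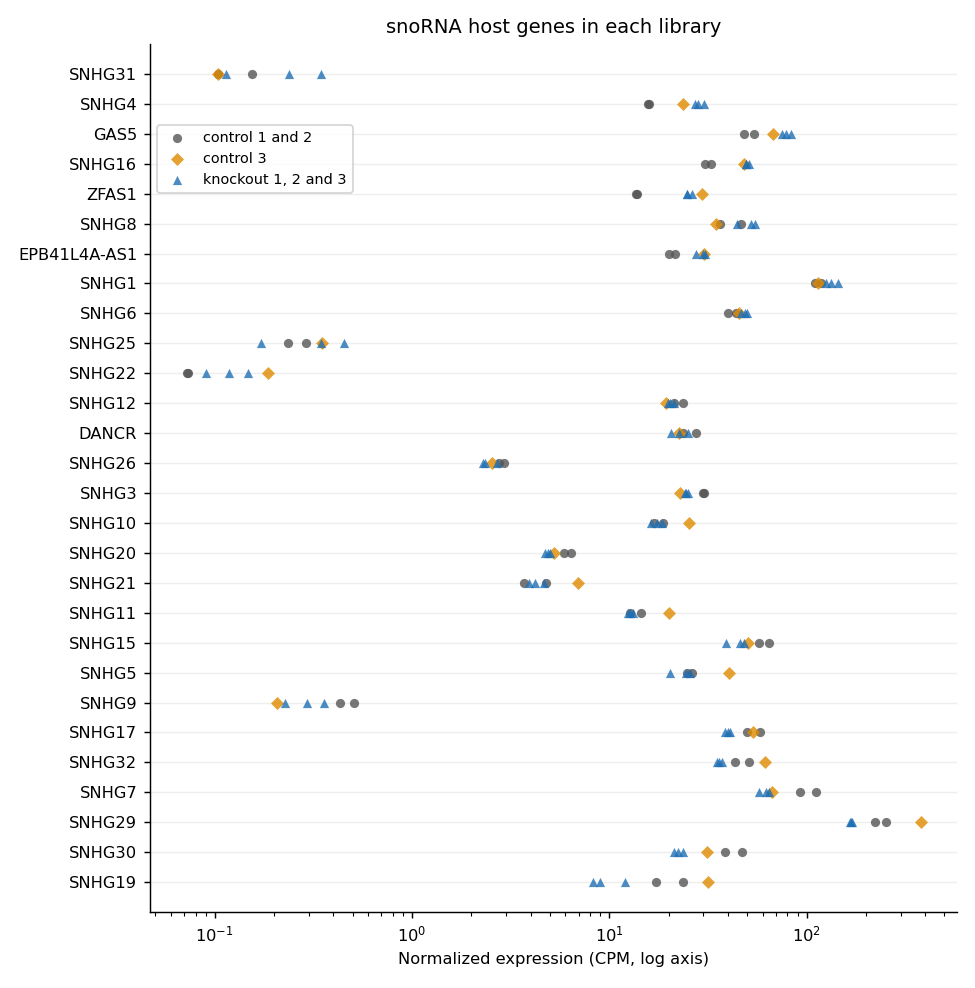
Normalized expression (CPM, log axis) of the 28 tested snoRNA host genes in each library, ordered from the highest log2 fold change at the top to the lowest at the bottom. Circles are controls 1 and 2, diamonds control 3 and triangles the 3 knockouts. In SNHG29 the knockouts lie at 166 to 169 CPM and control 3 at 379 CPM, with controls 1 and 2 between them, while in ZFAS1 control 3 lies above the knockouts.

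SNHG19 (ENSG00000260260), host of SNORD60, stood at 17.3, 23.6 and 31.7 CPM in controls 1, 2 and 3 and at 12, 8.30 and 8.99 CPM in knockouts 1, 2 and 3. Every knockout lay below every control, and control 3 was the highest library. The log2 fold change was −1.31 (SE 0.26, edgeR adjusted p = 0.0237). Over the 12 alternatives the adjusted p lay between 1.70e-07 and 0.122. The call was lost without control 2 or any 1 knockout, with log2 fold changes over the single omissions between −1.53 and −1.1, the latter without control 3.

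SNHG30 (ENSG00000267321), host of SNORD7, stood at 38.4, 47.0 and 31.3 CPM in the controls and at 23.6, 21.3 and 22.3 CPM in the knockouts. The groups did not overlap, and here control 3 was the control nearest to the knockouts. The log2 fold change was −0.80 (SE 0.16, edgeR adjusted p = 0.0249), and −0.96 without control 3. Its adjusted p over the alternatives lay between 3.59e-09 and 0.119. Leaving out any library other than control 3 ended the call, with log2 fold changes between −0.96 and −0.64.

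SNHG29 (ENSG00000175061, chr17:16438987-16470648), which carries the box C/D snoRNAs SNORD49A, SNORD49B and SNORD65, took more reads than any other host. It stood at 223, 253 and 379 CPM in the controls and at 166, 169 and 169 CPM in the knockouts. The knockouts lay close together (168 ± 1.5 CPM, SD, n = 3) and all below the lowest control, while control 3 was far above the other controls. The log2 fold change was −0.76 (SE 0.20, edgeR adjusted p = 0.0483) and −0.53 without control 3. The adjusted p lay between 4.02e-06 and 0.182 over the alternatives, and the call was lost without control 2 or any 1 knockout (log2 fold changes of −0.94 to −0.53 over the single omissions). By limma as run here, with voom and quantile normalization, SNHG29 was not called (log2 fold change −0.76, adjusted p = 0.0532). The study's own limma fit was not repeated.

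SNHG17 (ENSG00000196756, chr20:38420588-38435328), which carries the 4 box H/ACA snoRNAs SNORA71A to SNORA71D, stood at 49.9, 57.9 and 53.6 CPM in the controls and at 38.7, 39.9 and 40.9 CPM in the knockouts. Here control 3 lay between the other controls, and no knockout reached them. The log2 fold change was −0.43 (SE 0.09, edgeR adjusted p = 0.0286), with −0.47 without control 3. The adjusted p lay between 2.78e-05 and 0.151 over the alternatives, and the call was lost when any library other than control 3 was left out (−0.51 to −0.38) and when low counts were not filtered (−0.43, adjusted p = 0.0620).

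**Figure D2:**
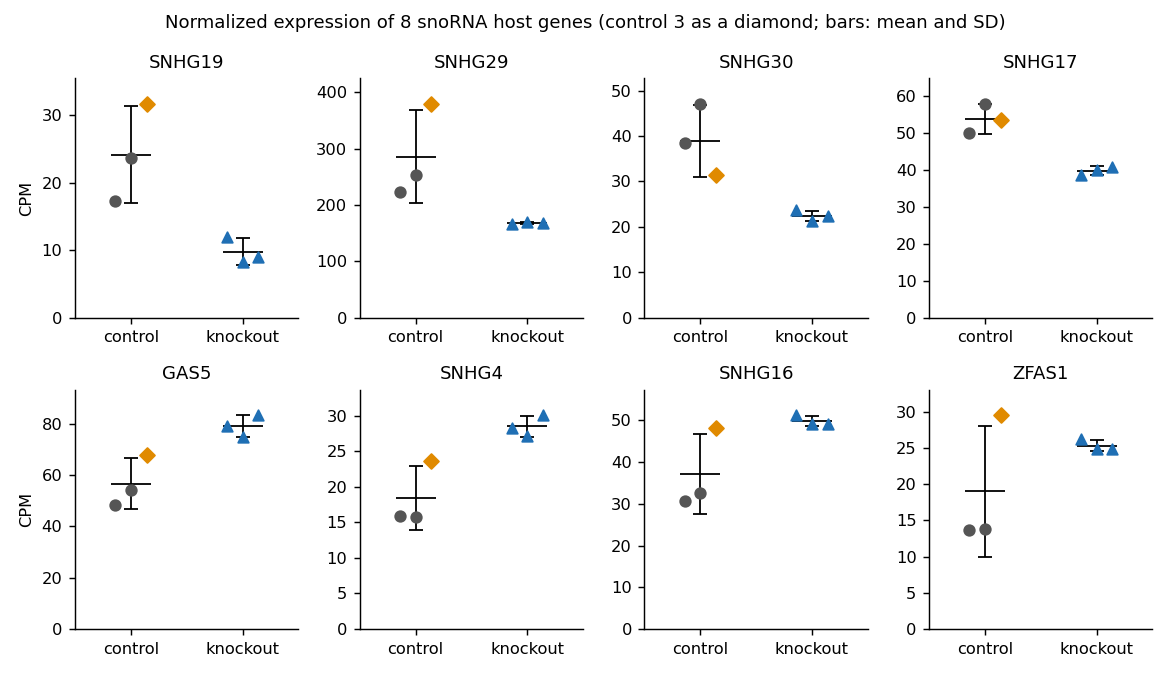
Normalized expression (CPM, linear axes from 0) of SNHG19, SNHG29, SNHG30 and SNHG17, which passed the edgeR test, and of GAS5, SNHG4, SNHG16 and ZFAS1, which did not and were chosen after their values were seen. Circles are controls 1 and 2, diamonds control 3, triangles knockouts, and bars the mean and SD of 3 libraries. In the upper row all knockouts lie below all controls, and in the lower row controls 1 and 2 lie below the knockouts and control 3 lies nearer to them or, for ZFAS1, above them.

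The 4 hosts named in addition to the SNHG series did not pass the test with all 6 libraries. GAS5 (ENSG00000234741, chr1:173863901-173869045), a transcript known for accumulating in growth-arrested cells, stood at 48.3, 54.0 and 67.7 CPM in the controls and at 78.9, 74.6 and 83.2 CPM in the knockouts. Every knockout was above every control, with control 3 the nearest. Its log2 fold change was 0.48 (SE 0.14, edgeR adjusted p = 0.0646), and 0.60 without control 3.

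ZFAS1 (ENSG00000177410), named for its position antisense to the start of ZNFX1, stood at 13.7, 13.9 and 29.5 CPM in the controls and at 26.2, 24.8 and 24.9 CPM in the knockouts. Controls 1 and 2 were close together and below the knockouts, and control 3 was the highest of the 6 libraries. The log2 fold change was 0.41 (SE 0.31, edgeR adjusted p = 0.391) with all libraries and 0.85 (SE 0.08, edgeR adjusted p = 8.15e-09) without control 3.

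EPB41L4A-AS1 (ENSG00000224032, chr5:112160526-112162501), host of SNORA13, stood at 20.01, 21.6 and 30.3 CPM in the controls and at 29.9, 30.7 and 27.5 CPM in the knockouts. Control 3 lay within the range of the knockouts. Its log2 fold change was 0.29 (SE 0.18, edgeR adjusted p = 0.283), and 0.46 without control 3. DANCR (ENSG00000226950, chr4:52712394-52720697), host of SNORA26 and known as a brake on differentiation, stood at 23.6, 27.5 and 22.7 CPM in the controls and at 25.0, 22.6 and 20.5 CPM in the knockouts. The groups overlapped, with a log2 fold change of −0.12 (SE 0.13, edgeR adjusted p = 0.567).

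Other hosts with many reads also did not pass. SNHG1 (ENSG00000255717, chr11:62851978-62855885), host of 8 box C/D snoRNAs from SNORD22 to SNORD31, stood at 110, 118 and 115 CPM in the controls and at 144, 125 and 133 CPM in the knockouts. The 3 controls were close together and all below the knockouts, with a log2 fold change of 0.23 (SE 0.09, edgeR adjusted p = 0.134). SNHG7 (ENSG00000233016, chr9:136724594-136728184), host of SNORA17A and SNORA17B, stood at 92.7, 112 and 66.9 CPM in the controls and at 62.5, 64.8 and 57.5 CPM in the knockouts. Control 3 lay just above the knockouts and well below controls 1 and 2, and the log2 fold change was −0.55 (SE 0.19, edgeR adjusted p = 0.0922), or −0.76 without control 3. SNHG15 (ENSG00000232956, chr7:44983023-44986696), host of SNORA9, stood at 57.3, 64.2 and 50.3 CPM in the controls and at 48.0, 45.9 and 38.9 CPM in the knockouts (log2 fold change −0.37, SE 0.13, edgeR adjusted p = 0.103). The lowest control and the highest knockout were close together.

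SNHG32 (ENSG00000204387, chr6:31834916-31839761), host of SNORD48 and SNORD52, missed the threshold most narrowly, with 43.4, 50.8 and 61.5 CPM in the controls and 35.3, 35.8 and 37.4 CPM in the knockouts. All knockouts lay below all controls (log2 fold change −0.52, SE 0.14, edgeR adjusted p = 0.0513). SNHG4 (ENSG00000281398, chr5:139274101-139284900), host of SNORA74A and SNORA74D, stood at 15.9, 15.8 and 23.7 CPM in the controls and at 28.3, 27.2 and 30.1 CPM in the knockouts. All knockouts lay above all controls (log2 fold change 0.63, SE 0.18, edgeR adjusted p = 0.0629). SNHG16 (ENSG00000163597, chr17:76557764-76565348), host of SNORD1A, SNORD1B and SNORD1C, stood at 30.6, 32.6 and 48.1 CPM in the controls and at 51.2, 49.3 and 49.1 CPM in the knockouts. Control 3 was just below the lowest knockout, and the log2 fold change was 0.43 (SE 0.18, edgeR adjusted p = 0.154), or 0.63 without control 3.

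Across the 28 tested hosts, 17 had a log2 fold change below 0 and 11 above 0, with a median of −0.16 beside −0.01 over all genes tested. The 2 groups did not overlap in 13 hosts. In 5 of the 28 every knockout was higher (GAS5, SNHG1, SNHG4, SNHG6 and SNHG16), beside 21.5% of all genes, and in 8 every knockout was lower (SNHG7, SNHG15, SNHG17, SNHG19, SNHG20, SNHG29, SNHG30 and SNHG32), beside 20.1% of all genes. Beside ZFAS1, EPB41L4A-AS1 and DANCR, the groups overlapped in SNHG3, SNHG5, SNHG8, SNHG9, SNHG10, SNHG11, SNHG12, SNHG21, SNHG22, SNHG25, SNHG26 and SNHG31. Of these, SNHG31 had the highest log2 fold change of all hosts, 0.93 (SE 0.46, edgeR adjusted p = 0.2), at levels of only 0.104 to 0.344 CPM.

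**Figure D3:**
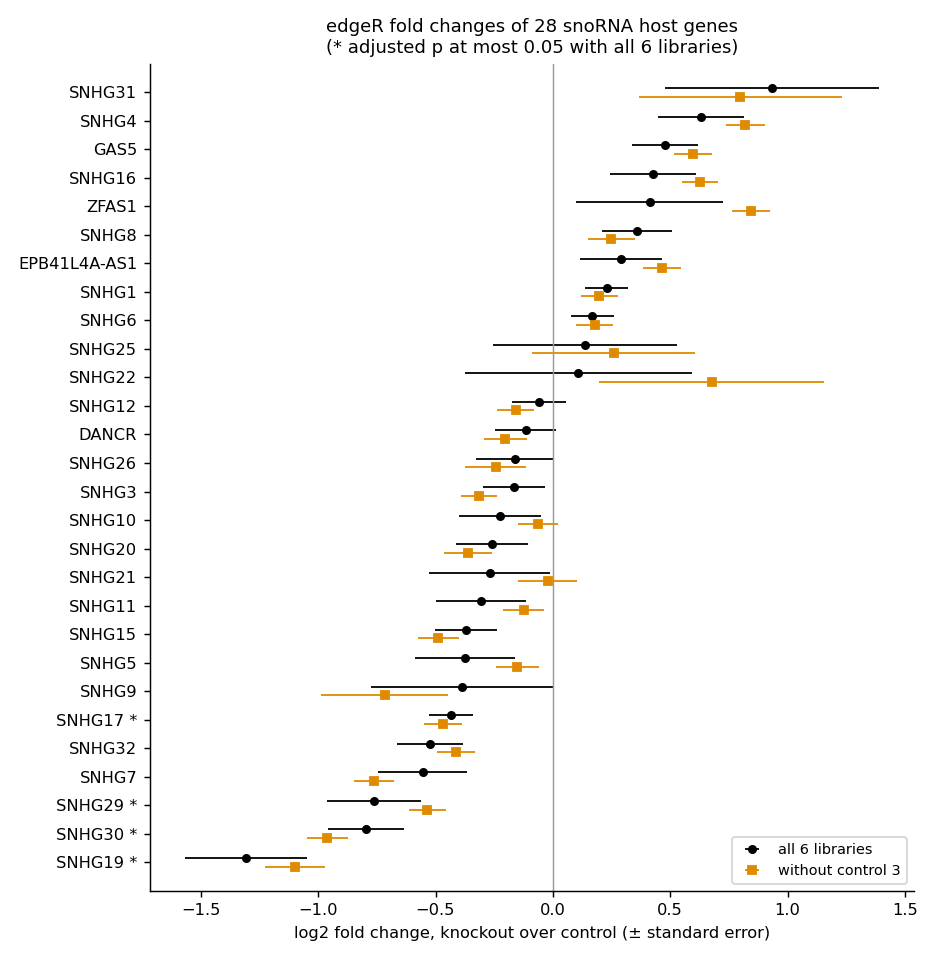
Log2 fold change (knockout over control, edgeR) with its standard error for the 28 tested snoRNA host genes, with all 6 libraries (black circles) and without control 3 (orange squares), and a star where the adjusted p with all libraries was at most 0.05. SNHG19 lies lowest in both fits (−1.31 and −1.1), and ZFAS1 moves from 0.41 to 0.85 when control 3 is left out.

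The summed level of all 32 hosts was 980, 1112 and 1235 CPM in the controls and 987, 940 and 957 CPM in the knockouts, so control 1 lay within the range of the knockouts. SNHG29 made up 22.8%, 22.8% and 30.7% of that sum in the controls and 16.8%, 17.98% and 17.6% in the knockouts. Without it the sums were 757, 859 and 856 CPM against 821, 771 and 788 CPM, and the groups overlapped. The share is one of reads, which longer RNAs draw more of. Per kilobase of annotated exon, SNHG19 stood highest in controls 1 and 2 at 33.3 CPM per kb, followed by SNHG1 at 28.8, SNHG29 at 26.6 and SNHG30 at 26.4 CPM per kb. In the knockouts SNHG1 was first at 33.7 CPM per kb, and SNHG19, SNHG29 and SNHG30 stood at 15.9, 18.8 and 13.8 CPM per kb. The exon lengths merge all annotated isoforms, retained-intron and longer ones included, which lowers these levels for hosts that have them. For some hosts, such as SNHG5 and SNHG8, they exceed the whole RefSeq span of the gene. The order of hosts per kilobase therefore depends on the annotation used.

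Hosts of each snoRNA class included members on both sides of 0. Of the hosts of box C/D snoRNAs only, 11 were tested and 3 fell, with log2 fold changes of −1.31 to 0.43 and a median of −0.16. Of the hosts of box H/ACA snoRNAs only, 11 were tested and 1 fell, with log2 fold changes of −0.55 to 0.93 and a median of −0.17. Of all genes tested, 8.67% were called lower. The 4 scaRNA hosts (SNHG10, SNHG20, SNHG21 and SNHG22) lay between −0.27 and 0.11 and none passed, and neither did GAS5 and SNHG12, which carry snoRNAs of both classes.

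Control 3 differed from the mean of controls 1 and 2 by at least 0.5 in log2 CPM in 13 of the 28 tested hosts (46.4%), beside 49.3% of all genes. It was higher in 11 of them and lower in 2, SNHG7 and SNHG9, beside 5833 higher and 4515 lower of the 20992 genes tested. For ZFAS1 the difference was 1.1 in log2 CPM for control 3 and 0.88 for the knockout mean, for SNHG4 it was 0.58 and 0.85, and for SNHG16 0.61 and 0.66. For SNHG19 it was 0.65 for control 3 and −1.06 for the knockout mean, and for SNHG29 it was 0.67 and −0.50. SNHG5, SNHG10, SNHG11 and SNHG21 were 0.52 to 0.72 higher in control 3, with knockout means within 0.13 of controls 1 and 2. Both differences are taken from the same controls 1 and 2, so they are given side by side only.

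**Figure D4:**
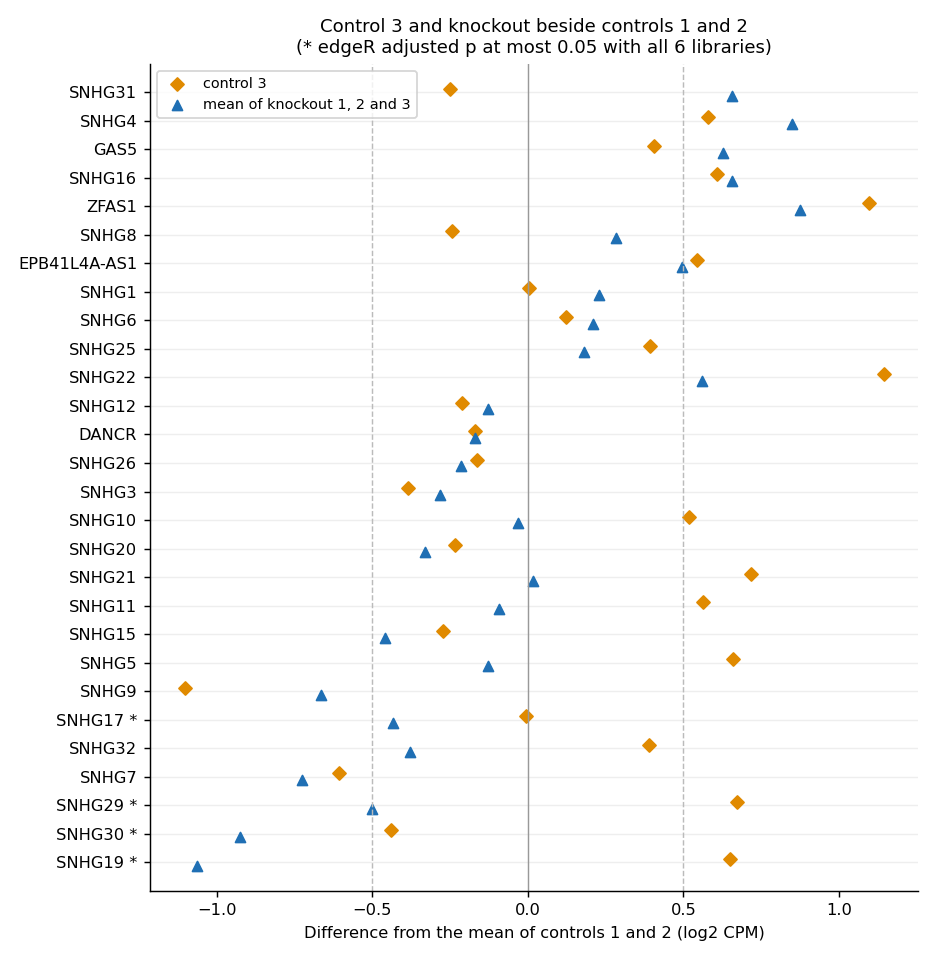
Difference in log2 CPM from the mean of controls 1 and 2 for control 3 (diamonds) and for the mean of the 3 knockouts (triangles), for the 28 tested snoRNA host genes, with dashed lines at −0.5 and 0.5 and a star where the edgeR adjusted p with all libraries was at most 0.05. For SNHG19 control 3 lies at 0.65 and the knockouts at −1.06, and for ZFAS1 they lie at 1.1 and 0.88.

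Without control 3, edgeR called 17 of the 28 hosts tested in both fits (60.7%), beside 65.7% of the 20992 genes tested with all libraries. Of these 7 were higher (EPB41L4A-AS1, GAS5, SNHG1, SNHG4, SNHG8, SNHG16 and ZFAS1), beside 32.4% of all genes, and 10 were lower, beside 33.2% of all genes. The 4 hosts called with all libraries were among the 10, together with SNHG3, SNHG7, SNHG9, SNHG15, SNHG20 and SNHG32. SNHG18, not tested with all libraries, passed the filter only through its counts in controls 1 and 2 and had to differ, so its call is not counted. This fit rests on 2 controls that lay close together.

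The 4 hosts with too few counts to test were SNHG14, SNHG18, SNHG27 and SNHG28. SNHG18, host of SNORD123, was counted 44 times in control 1, 54 times in control 2 and not at all in control 3 and the 3 knockouts. Against a floor of 3 counts per library it was at least 9.78-fold lower in the knockouts than in the mean of the 3 controls, and at least 14.7-fold lower than in controls 1 and 2. Control 3 could not be told from the knockouts in this gene. SNHG14 was counted 3, 2 and 4 times in the controls, beside 4, 14 and 7 times in the knockouts. SNHG27 and SNHG28, the 2 hosts within which RefSeq placed 0 snoRNAs, had 0 counts in every library. Floors cover counting error only.

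The mature snoRNAs were hardly seen. GENCODE, whose snoRNA genes differ in part from those of RefSeq and include some within SNHG27 and SNHG28, placed 100 snoRNA genes with a row of their own in the table within the hosts. Most of these lay within SNHG14, a host with few counts itself, and all of those had 0 counts. None lay within GAS5, SNHG1, SNHG7 or SNHG29. Of the 100, 88 had 0 counts in every library and 8 had at least 10 counts in total. SNORD104 of SNHG25 had the most, with 48, 86 and 81 control counts beside 81, 115 and 94 knockout counts, followed by SNORA73B of SNHG3, with 76, 68 and 63 against 53, 50 and 84. The ranges overlapped in both. Whether these reads came from the snoRNA or from host RNA was not tested.

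Host start sites were read from RefSeq promoter sequences (GRCh38.p14), which 28 of the 32 hosts had. In 7 of them (25.0%) this start was a C followed by at least 4 pyrimidines (C or T), the form of a terminal oligopyrimidine leader, which ties translation of an mRNA to growth signals, and 4.07% of all 35116 promoters had it. The start is that of the RefSeq promoter entry, which for SNHG12 and ZFAS1 lies inside the outer bounds of the gene. The windows of 20 bases on each side of it are shown for the tested hosts that had the tract, on the host's own strand, with the tract in capitals: SNHG19 (chr16:2155339-2155378, minus), SNHG32 (chr6:31834896-31834935, plus), SNHG5 (chr6:85678714-85678753, minus), SNHG12 (chr1:28581854-28581893, minus), ZFAS1 (chr20:49278622-49278661, plus) and SNHG4 (chr5:139274081-139274120, plus).
SNHG19: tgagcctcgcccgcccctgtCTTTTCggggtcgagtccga
SNHG32: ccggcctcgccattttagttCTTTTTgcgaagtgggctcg
SNHG5: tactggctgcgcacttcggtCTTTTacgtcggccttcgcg
SNHG12: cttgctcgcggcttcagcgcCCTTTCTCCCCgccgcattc
ZFAS1: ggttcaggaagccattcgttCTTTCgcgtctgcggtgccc
SNHG4: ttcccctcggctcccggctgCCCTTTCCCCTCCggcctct
These 6 hosts ran from the lowest log2 fold change of all hosts, −1.31 for SNHG19, through −0.52 for SNHG32, −0.37 for SNHG5, −0.06 for SNHG12 and 0.41 for ZFAS1 to 0.63 for SNHG4. Their median was −0.22, beside −0.16 for the 18 other tested hosts with a promoter sequence. SNHG18 was the other host with the tract. The palindrome CACGTG, read alike on both strands, was found between 250 bases before and 50 bases after the start of SNHG7 and SNHG30, which is 7.14% of the hosts beside 7.26% of all promoters. A start without the tract in RefSeq says only that these letters are not at that annotated base.

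Some hosts share exons with other genes, and whether reads were assigned by strand is not given in the sources used here, so counts of such pairs are uncertain. By annotation 18 hosts shared exonic bases with a gene on the opposite strand, 9 with a gene on the same strand and 10 with no other gene. SNHG17 and SNHG19 had no such partner, while 5.6% of SNHG29's exons lay opposite LRRC75A (log2 fold change −0.29, edgeR adjusted p = 0.201). Of the exons of EPB41L4A-AS1, 51.2% lay opposite EPB41L4A, which rose (0.98, adjusted p = 0.0132), 37.6% of SNHG8's lay opposite PRSS12, which rose (0.87, adjusted p = 0.0328), and 30.3% of SNHG7's lay opposite DIPK1B, which fell (−0.76, adjusted p = 0.0365). For SNHG4, 14% of the exons lay on the same strand within MATR3. ENSG00000015479, of that symbol, rose (0.73, edgeR adjusted p = 0.0344), and SIL1 on the opposite strand rose as well (0.53, edgeR adjusted p = 0.0286). Partner values were matched by symbol, so where a symbol has several Ensembl IDs they may belong to another ID than the overlapping one. MCMDC2, opposite 58.9% of SNHG6's exons, had few reads and lay under 0.2 CPM in each group. The part of these overlaps in the hosts' values was not tested.

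Of 22 tested protein-coding genes that also carry snoRNAs, 2 were called, both lower (9.09%, beside 16.6% of all genes). Of the 22, 17 had a log2 fold change above 0 and 5 below 0, with a median of 0.13. An unadjusted edgeR p under 0.05 was found for 8 of them, beside 7249 of all 20992 genes tested. DKC1, which encodes the pseudouridine synthase of box H/ACA particles and itself hosts snoRNAs, stood at 238, 245 and 269 CPM in the controls and at 155, 155 and 149 CPM in the knockouts (log2 fold change −0.71, SE 0.09, edgeR adjusted p = 0.00763). PPAN, a ribosome biogenesis factor, fell from 13.2, 14.04 and 11.3 CPM to 7.74, 8.35 and 8.83 CPM (−0.63, SE 0.15, edgeR adjusted p = 0.0349).

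Among the 8 core proteins of snoRNA particles, 2 were called, DKC1 and SNU13, both lower (25%, beside 16.6% of all genes). Of the 8, 5 had a log2 fold change above 0, with a median of 0.13. At an unadjusted edgeR p under 0.05 there were 3 of the 8, beside 7249 of all 20992 genes tested. SNU13, which binds the box C/D fold, stood at 176, 202 and 158 CPM in the controls and at 121, 141 and 117 CPM in the knockouts (−0.50, SE 0.13, edgeR adjusted p = 0.0451). FBL, the box C/D methyltransferase, stood at 221, 256 and 639 CPM in the controls and at 651, 740 and 675 CPM in the knockouts (0.89, SE 0.40, edgeR adjusted p = 0.173). Controls 1 and 2 of FBL were far below the knockouts and control 3 was near them. Of 10 assembly factors, PIH1D1, a subunit of the R2TP chaperone complex, rose from 75.3, 80.5 and 72.0 CPM to 108, 106 and 106 CPM (0.49, SE 0.08, edgeR adjusted p = 0.0160). It was the gene called in that list (10%), whose median was 0.16.

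Of 14 lariat and exosome genes, 2 rose and 1 fell (21.4% called, beside 16.6% of all genes, median 0.17): the exosome nuclease DIS3 (0.62, edgeR adjusted p = 0.0202) and EXOSC5 (0.38, adjusted p = 0.0399) were higher, and EXOSC6 (−0.61, adjusted p = 0.0212) was lower. Of 10 nonsense-mediated decay genes, 1 rose and 2 fell (30% called, median −0.14): UPF3B (0.47, edgeR adjusted p = 0.0217) was higher, and SMG6, the endonuclease of the pathway (−0.78, adjusted p = 0.0254), and SMG5 (−0.30, adjusted p = 0.0478) were lower.

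Of the 79 cytosolic ribosomal protein genes, 11 rose and 1 fell (15.2% called, beside 16.6% of all genes), with a median log2 fold change of 0.14. Among the 11 that rose, the largest changes were those of RPL21 (15.9, 17.9 and 18.3 against 38.9, 35.6 and 39.3 CPM, log2 fold change 1.13), RPL39 (1.05), RPS15A (0.82), RPS26 (0.76), RPL34 (0.56) and RPL9 (0.55), and RPL27 was the gene that fell (−0.41, edgeR adjusted p = 0.0472). Many of these genes have processed pseudogenes of near-identical sequence, among which reads could be split. Without control 3 the calls numbered 55 of the 79 ribosomal protein genes, 14 of the 22 protein-coding hosts, 6 of the 8 core proteins, 8 of the 10 assembly factors, 9 of the 14 lariat and exosome genes and 8 of the 10 nonsense-mediated decay genes, which is 63.6% to 80% of each list beside 65.6% of all genes. Without any 1 knockout library, edgeR called 0 genes of these lists other than the ribosomal protein genes. In these fits 0.763% to 2.31% of all genes were called, and 2 to 6 genes of each of these other lists had an unadjusted edgeR p under 0.05.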

How the data were processed

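RNA from 3 control and 3 FAM60A-knockout libraries was poly(A)-selected and prepared by a strand-specific (dUTP) protocol. The authors deposited a table of raw counts, 1 row for each Ensembl gene. The submitters' processing notes name STAR 2.7.10b, featureCounts 2.0.0 and hg38, the study's methods name Trimmomatic and Salmon on hg38, and one label names hg19. The strand setting of counting is not given in the sources used here.

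Of 62754 genes, 60878 were matched to a symbol. edgeR 4.0.16 (R 4.3.3) was used with TMM factors, filterByExpr (minimum count 10) and the two-sided quasi-likelihood test on all 6 libraries, with Benjamini-Hochberg adjustment over all 20992 genes tested and calls at an adjusted p of at most 0.05. CPM were normalized with TMM, and log2 CPM used a prior count of 2. The study's own test was limma, kept as an alternative (limma 3.58.1, voom with quantile normalization) beside DESeq2 1.42.0, library size without TMM, no filter, at least 10 counts in every library, each library left out, and the replicate number as a block. The exact permutation test was run in scipy 1.17.1.

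The members and lists were chosen with earlier results of these data known. Named in full were GAS5, ZFAS1, EPB41L4A-AS1 and DANCR, the 5 hosts with the highest mean CPM, called hosts, up to 12 hosts whose groups did not overlap and hosts under the filter, and up to 6 called genes of each other list by size of change. Genes outside that rule that are named, such as FBL, RPL27 and the exon-sharing partners, were chosen after their values were seen. Exon lengths, overlaps and snoRNA sequences came from GENCODE, and coordinates and start sites from RefSeq GRCh38.p14. The marker PECAM1 was not analysed here, and some markers and exon-sharing partners are not reported here.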

Additional observations from a re-analysis of the deposited data

How the results depend on the processing

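With 3 libraries a group and control 3 apart from the others, no call on the hosts held under every alternative. Of 335 values (28 hosts under 12 alternatives, less SNHG22 under the stricter filter), 282 kept their direction and their side of the threshold, 21 newly passed it, 24 no longer passed it and 8 changed sign, and no host called with all libraries changed sign. The cause of these changes was not tested. The count of hosts called was 4, with 4 by limma (17.2% of all genes), 8 by DESeq2 (26.6%) and 0 to 18 when a library was left out. It was 3 without control 1 (4.89% of all genes), and 0 without control 2 (3.71%) or any 1 knockout (0.763% to 2.31%). Without control 3 it was 18 (65.6%), including SNHG18, which entered only through its counts in controls 1 and 2. In the fits with 0 calls, 7 to 10 hosts had an unadjusted edgeR p under 0.05. Hosts called higher numbered 0, with 1 by limma, 2 by DESeq2 and 0 to 7 over the omissions, and hosts called lower 4, with 0 to 11. Past an absolute log2 fold change of 1 there was 1 host, with 0 to 2. Without TMM the median log2 fold change of all genes moved from −0.01 to −0.12, and that of the hosts from −0.16 to −0.27.

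SNHG12 changed sign without control 2 (0.0122). SNHG22 did so under limma (−0.16) and without control 1 (−0.14), control 2 (−0.12) or knockout 2 (−0.0697), and reached 0.68 without control 3. SNHG25 did so under limma (−0.0342) and without control 1 (−0.0207) or knockout 3 (−0.18), and reached 0.45 without knockout 2. None of these 3 was called with all libraries.

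Of all genes tested, edgeR called 16.6% with all libraries, DESeq2 26.6%, limma 17.2% and edgeR without a filter 6.45%. For ribosomal protein genes (12 called), DESeq2 gave 22 and the omissions 1 to 55. For protein-coding hosts (2), DESeq2 gave 5, no filter 1 and the omissions 0 to 14. For core proteins (2), no filter gave 1 and the omissions 0 to 6. For assembly factors (1), limma and DESeq2 gave 2 and the omissions 0 to 8. For lariat and exosome genes (3) the omissions gave 0 to 9, and for nonsense-mediated decay genes (3) they gave 0 to 8. In all of these the highest count was that without control 3. The count was 0 without any 1 knockout for the lists other than ribosomal protein genes. It was also 0 without control 1 or control 2 for assembly factors, lariat and exosome genes and nonsense-mediated decay genes. In these fits 2 to 6 of each list had an unadjusted edgeR p under 0.05, and 0.763% to 4.89% of all genes were called. SNHG29 lost its call under limma and SNHG17 with no filter. The FAM60A log2 fold change lay between −0.92 and −0.78 over the omissions.

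The replicate numbers of the labels did not pair the libraries: the deviations of same-numbered controls and knockouts from their group means correlated at 0.01, 0.03 and −0.04, and not every library correlated best with its own number. With the replicate number as a block, edgeR called 1.94% of all genes and 0 hosts (9 at an unadjusted p under 0.05). Hence 0 hosts were called lower and 0 past a log2 fold change of 1. Of the lists, 1 ribosomal protein gene was called and 0 genes of the other 5 lists (3 to 5 of each at an unadjusted p under 0.05). The FAM60A log2 fold change was then −0.84 and not called. The paired fit changed no direction of a call.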
